A study of Mus musculus with 4 samples.

Results

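The genes described here are the mouse replication histone genes, taken as every row of the deposited expression table whose gene symbol starts with Hist1h, Hist2h, Hist3h or Hist4h. The rule found 70 genes among 54446 rows: 56 with the prefix Hist1 on chromosome 13, 10 with Hist2 on chromosome 3, 3 with Hist3 on chromosome 11 and 1 with Hist4 on chromosome 6. By histone, 6 genes code for linker histone H1, 20 for H2A, 19 for H2B, 12 for H3 and 13 for H4, and 3 of the 70 (Hist1h2aj, Hist1h2al and Hist3h2bb-ps) are annotated as pseudogenes. The samples were cultured satellite cells (muscle stem cells) from the hindlimb of C57BL/6 mice, grown in F10 medium with 10% HS. Of the 4 samples, 2 had received siRNA against the long non-coding RNA LncMyoD and 2 had received control siRNA, in each case for 48 h before harvest by the labels. The groups follow the sample titles and descriptions; the treatment protocol attached to the control samples carries the same wording as that of the knockdown samples and gives LncMyoD as its target too. The labels do not state that replicates were separate cultures or animals, so p-values cover the spread between these samples only, and that spread may be technical. The LncMyoD transcript itself was not analysed here.

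Replication histone genes supply the histones that package newly made DNA, and they are transcribed in S phase, when DNA is copied. Their messenger RNAs differ from nearly all others: most have no introns, and they end a few bases after a conserved stem-loop, where the stem-loop binding protein SLBP and the U7 small nuclear RNP direct cleavage, instead of carrying a poly(A) tail. Some of these genes are also known to make longer, polyadenylated transcripts by reading past the stem-loop to an ordinary polyadenylation signal, above all in cells that leave the cell cycle. Replacement histone genes, such as those for H3.3 and H2A.Z, have ordinary polyadenylated transcripts and are expressed throughout the cycle. The RNA measured here was polyadenylated RNA, copied into cDNA with a kit for full-length transcripts from low input, so the levels below are those of the RNA that this procedure captured.

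Both kinds of 3′ end can be read in the annotated transcripts of the histone genes with the highest levels. In the following lines from GENCODE M21 (GRCm38, the assembly behind mm10), capitals mark the 16 bases that match the stem-loop pattern (GGNNCTT, then NTNAN, then NNCC), searched on the transcript strand within 120 bases after the stop codon. They are shown because the genes differ in what the annotation places after this element.
Hist1h2ao stem-loop: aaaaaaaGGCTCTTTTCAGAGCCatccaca
Hist3h2a stem-loop: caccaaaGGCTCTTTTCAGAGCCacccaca
Hist1h4i stem-loop: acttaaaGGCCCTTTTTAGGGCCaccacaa
Hist1h1c stem-loop: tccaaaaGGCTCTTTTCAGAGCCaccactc
Hist1h2bj stem-loop: atccaaaGGCTCTTTTCAGAGCCacgcaca
These windows lie at chr13:21810891-21810920 (plus strand), chr11:58955165-58955194 (plus), chr13:22040959-22040988 (minus), chr13:23739505-23739534 (plus) and chr13:22043631-22043660 (plus). After the window, the annotated transcript went on for 24 bases in Hist1h2ao and 16 bases in Hist1h2bj. It went on for 1636 bases in Hist3h2a, 323 bases in Hist1h4i and 833 bases in Hist1h1c. Hist1h4i and its H4 relative Hist2h4 were the genes whose loop read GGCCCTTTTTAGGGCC, while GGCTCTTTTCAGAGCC was the stem-loop of 26 genes.

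The long transcripts of Hist3h2a, Hist1h4i and Hist1h1c, and that of the H2A gene Hist1h2ae, had AATAAA or its common variant ATTAAA within the last 60 bases of the annotated transcript, shown here in capitals.
Hist3h2a signal: aggtatatgcccAATAAAataagagtacgt
Hist1h4i signal: ggttctgtttacATTAAAagtattctatgc
Hist1h1c signal: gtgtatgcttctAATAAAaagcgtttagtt
Hist1h2ae signal: cccagcttctccAATAAAtgggtcaatttt
They lie at chr11:58956785-58956814 (plus strand), chr13:22040639-22040668 (minus), chr13:23740330-23740359 (plus) and chr13:23570527-23570556 (minus). Among annotated protein-coding transcripts with at least 60 bases after the stop codon, the stem-loop pattern was found in 46 of 51 from the replication histone genes (90.2%), against 32 of 42286 from all other genes (0.0757%). For AATAAA or ATTAAA in the last 60 bases the counts were 19 of 51 (37.3%), against 28647 of 42286 (67.8%). A match describes the annotated letters and is not evidence that the RNA ended there.

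The values deposited by the authors were read as FPKM, a unit inferred from the numbers: the fragments of a transcript per kilobase of its length, scaled to the library's mapped fragments, so levels are per length and can be set beside each other across genes. The 70 genes together gave 118 and 144 FPKM in knockdown replicates 1 and 2, against 119 and 116 FPKM in control replicates 1 and 2. That was 0.0372% and 0.0450% of all FPKM in the knockdown libraries, against 0.0369% and 0.0360% in the control libraries. Knockdown replicate 2 stood above the other 3 libraries, and the 2 groups overlapped. In bulk samples such as these, a level set by the number of cells in S phase and one set by the histone RNA per cell cannot be told apart. The log2 ratio of the group means of this sum was 0.16, and it was 0.0056 without knockdown replicate 2.

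The signal came from few genes. Averaged over all 4 samples, 18 of the 70 genes reached 1 FPKM, and 7 reached 5 FPKM: the H2A genes Hist1h2ao, Hist3h2a, Hist1h2ap and Hist1h2aj, the H2B gene Hist1h2bc, the H4 gene Hist1h4i and the H1 gene Hist1h1c. These 7 made up 72.2% and 74.0% of the histone sum in the knockdown libraries, against 68.8% and 69.2% in the control libraries. Of the 52 other genes under 1 FPKM, 3 were listed at 0 in every sample (Hist1h1a, Hist1h1t and Hist3h2bb-ps), and the median of their means was 0.220 FPKM. The highest mean under the limit was 0.977 FPKM, for Hist1h2ah, and the lowest above it was 1.00 FPKM, for Hist1h2ai.

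By position, the signal lay almost wholly in the large cluster of chromosome 13 and in 1 gene of chromosome 11. The Hist1 genes gave 99.0 and 129 FPKM in the knockdown libraries, against 103 and 98.7 FPKM in the control libraries, and 17 of 56 had a mean of at least 1 FPKM. They fall into 3 blocks of neighbours, with Hist1h2al apart. In the block between chr13:21715763-21837530, 8 of 19 genes passed 1 FPKM, and the sums were 46.0 and 59.8 FPKM in knockdown, against 47.4 and 46.8 FPKM in control. In the block of 5 genes between chr13:22035164-22043676, 3 passed, with 15.6 and 22.2 FPKM in knockdown, against 18.5 and 20.02 FPKM in control. In the block between chr13:23531050-23934851, 6 of 31 passed, with 36.8 and 46.6 FPKM in knockdown, against 36.6 and 31.7 FPKM in control. The 2 genes of the block of 5 that did not pass, Hist1h2ah and Hist1h2bk, lay just under the limit, with means of 0.977 and 0.873 FPKM.

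The Hist3 genes gave 16.4 and 13.0 FPKM in knockdown, against 12.4 and 15.4 FPKM in control, and almost all of it came from Hist3h2a. The 10 Hist2 genes summed to 2.51 and 2.14 FPKM in knockdown, against 3.28 and 1.74 FPKM in control, and no Hist2 gene had a mean of 1 FPKM. The highest was Hist2h2ac, with a mean of 0.749 FPKM. Hist4h4, the lone gene on chromosome 6, had 0 and 0.0264 FPKM in knockdown, against 0.362 and 0.0355 FPKM in control.

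At a limit of 1 FPKM, each class of annotated 3′ end held genes above and below it. This limit is per annotated length, so it does not mark equal numbers of reads. Hist2h2be, with a transcript of 2620 bases, fell under it on 14.5 to 122 aligned read lengths of 150 bases. Hist1h2ai, with 393 bases, passed on 9.46 to 27.2. Whether the 3′ end bears on signal was not tested. The polyadenylation signal class holds 17 genes in which an annotated transcript has a signal within its last 60 bases. It includes Hist2h2be, Hist1h2bq and Hist1h2br, with no stem-loop match, and Hist1h4h, which ends 46 bases after its stem-loop. It also includes Hist1h2bp, of which another transcript ends near the stem-loop. In this class 4 genes had a mean of at least 1 FPKM, among them Hist3h2a, Hist1h4i and Hist1h1c. The others of this class had means from 0 to 0.709 FPKM, with Hist2h2be at the top. Of the 20 genes whose transcript is annotated to end near the stem-loop, 6 passed 1 FPKM, and these included Hist1h2ao and Hist1h2ap. In Hist1h2ao and Hist1h2ap, 91.5% and 91.0% of stretches of 150 bases also occur in other transcripts, so their reads may belong to other copies. The class of transcripts that run on with no signal near the end held 13 genes with 3 passing, led by Hist1h2bc. Among the 17 whose model stops before any stem-loop, 4 passed, led by the H1 gene Hist1h1b. Summed FPKM was 40.1 and 49.6 in knockdown, against 34.2 and 35.9 in control, for the genes with a polyadenylation signal, and the 2 groups did not overlap; Hist1h1c was the gene of this class with the largest difference. For the genes ending near the stem-loop it was 38.9 and 47.0 in knockdown, against 44.9 and 42.0 in control, with overlap. Neither sum was tested.

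**Figure D1:**
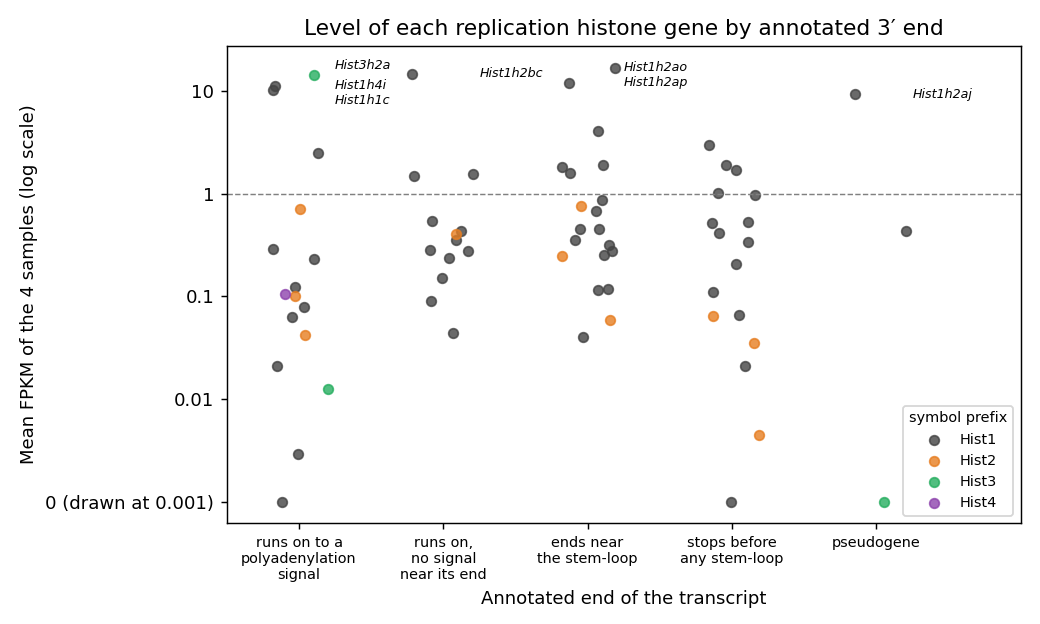
Mean FPKM of the 4 samples on a log axis for each of the 70 replication histone genes (points), by the annotated end of the transcript and coloured by symbol prefix. The dashed line is at 1 FPKM; the 7 genes at or above 5 FPKM are named, and they fall into 4 of the 5 classes.

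Single genes were compared between the groups with limma on log2(FPKM + 1), fitted over the 10900 genes of the table that averaged 1 FPKM or more, with Benjamini-Hochberg adjustment over all of them and a threshold of 0.05 on the adjusted p. Fold changes below are knockdown minus control on that log2(FPKM + 1) scale, which understates the change of low genes. None of the 18 replication histone genes tested passed, where 0.055% of all genes tested did (6 genes, 0.00917% higher and 0.0459% lower). At an unadjusted p under 0.05 there were 2 of 18 (11.1%), against 7.08% of all genes tested. The adjusted p-values of the 18 genes ran from 0.566 to 0.983 by limma. Their median fold change was 0.14, where the median of all genes tested was 0.026. In simulated data of this size the same fit recovered 25.8% of 2-fold and 78.6% of 4-fold changes in FPKM + 1 among all genes. A change of 2-fold would thus often be missed, and in low genes a 2-fold change of FPKM is smaller on that scale. The median SE was 0.251 for the 18 histone genes, against 0.198 for all genes tested.

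The 2 linker histone genes tested, Hist1h1c and Hist1h1b, had the largest positive fold changes of the 18, and neither passed the threshold. H1 proteins bind the DNA between nucleosomes and compact chromatin. Hist1h1c (H1.2; chr13:23738808-23740367, plus strand, 1 exon) had 11.2 and 16.5 FPKM in knockdown, against 8.004 and 5.01 FPKM in control. Both knockdown values lay above both control values. These levels correspond to about 643 and 1056 aligned read lengths of 150 bases in knockdown, against 489 and 305 in control, so they rest on deep coverage by the standard of these genes. The log2 fold change was 0.99 ± 0.27 (SE, n = 2 samples per group), the largest positive one among the 18, with an unadjusted limma p of 0.00973 and an adjusted p of 0.607.

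Hist1h1b (H1.5; minus strand, chr13:21779883-21780625) had 2.80 and 5.03 FPKM in knockdown, against 2.33 and 1.85 FPKM in control, again with no overlap. Its log2 fold change was 0.64 ± 0.28 (SE), with an adjusted limma p of 0.698. Hist1h1e (H1.4), under the limit of 1 FPKM, was placed the other way, with 0.227 and 0.185 FPKM in knockdown, against 0.624 and 0.372 FPKM in control; its annotated transcript shares sequence on the same strand with that of Hist1h2be. Hist1h1d had at most 0.0740 FPKM in any sample, and Hist1h1a and Hist1h1t, the testis H1, were listed at 0. Summed over the 6 genes, H1 gave 14.3 and 21.7 FPKM in knockdown, against 11.0 and 7.31 FPKM in control. Hist1h1c and Hist1h1b together account for nearly all of that sum.

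The gene with the lowest unadjusted p was the H2B gene Hist1h2bj (chr13:22043214-22043676, plus strand, 1 exon). It had 0.720 and 1.20 FPKM in knockdown, against 2.99 and 2.67 FPKM in control. The groups were well apart, but the values rest on only about 12.2 and 22.9 read lengths in knockdown, against 54.1 and 48.2 in control. The log2 fold change was -0.97 ± 0.23 (SE), with an unadjusted limma p of 0.00546 and an adjusted p of 0.566. On FPKM itself the knockdown mean was 0.340 times the control mean, and with a pseudocount of 0.1 in place of 1 the log2 fold change was -1.50. Of its sequence, 22.3% of the stretches of 150 bases also occur in another gene's transcripts.

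Its divergent neighbour Hist1h2ag (H2A; minus strand, chr13:22042460-22042944) had 4.27 and 3.03 FPKM in knockdown, against 4.30 and 4.82 FPKM in control. The higher knockdown value lay just under the lower control value. The log2 fold change was -0.27 ± 0.22 (SE), with an adjusted limma p of 0.820. The third gene with no overlap and lower knockdown values was Hist1h2ae (H2A; chr13:23570517-23571220, minus strand), with 1.68 and 2.38 FPKM in knockdown, against 2.80 and 3.01 FPKM in control. Its log2 fold change was -0.38 ± 0.22 (SE), with an adjusted limma p of 0.754. In all, 5 of the 18 genes had both knockdown values above both control values (27.8%, where 22.1% of all genes tested did) and 3 had them below (16.7%, where 16.3% of all genes tested did). Both shares lay near those of all genes.

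**Figure D2:**
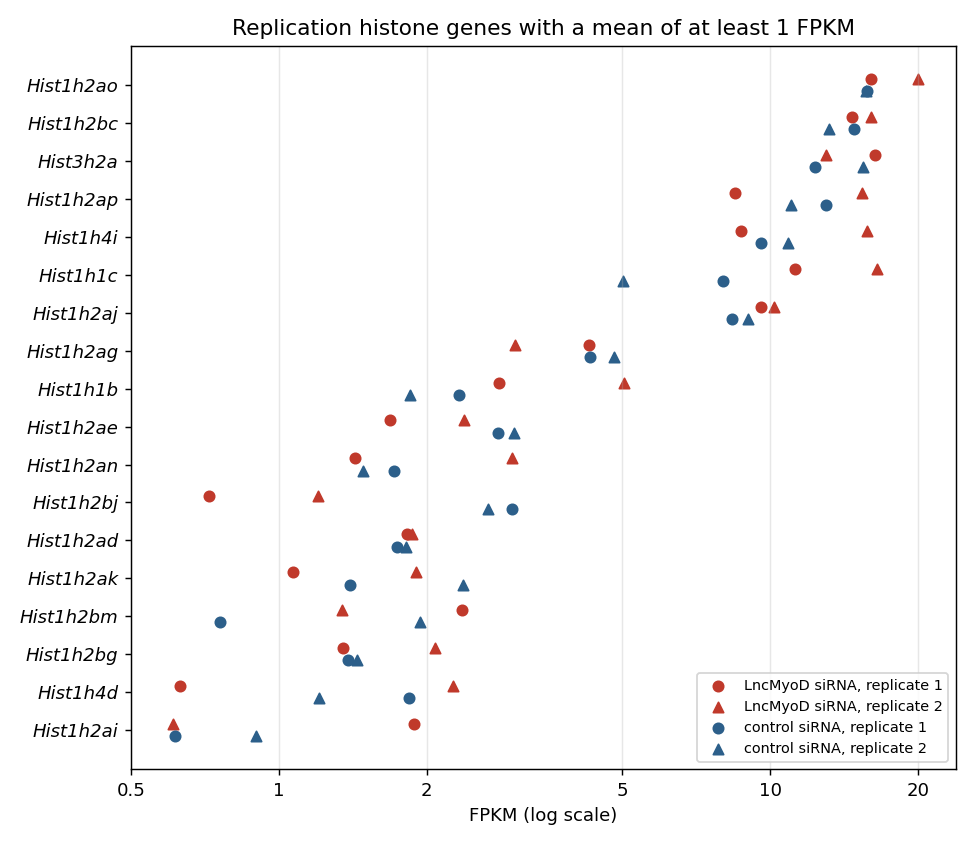
FPKM in each sample (log axis) of the 18 replication histone genes averaging 1 FPKM or more, ordered by mean. Red marks LncMyoD siRNA, blue control siRNA, circles replicate 1 and triangles replicate 2; Hist1h1c and Hist1h1b have both red points to the right of both blue points, and Hist1h2bj has them to the left.

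H2A genes gave the largest share of the signal. Their sum was 66.2 and 74.6 FPKM in knockdown, against 66.9 and 68.3 FPKM in control, and 10 of 20 genes passed 1 FPKM. H2A pairs with H2B in the nucleosome, and 14 pairs of H2A and H2B genes in the clusters stand head to head, with 5′ ends 173 to 306 bases apart.

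The highest H2A level was that of Hist1h2ao (chr13:21810465-21810944, plus strand), with 16.0 and 20.01 FPKM in knockdown, against 15.7 and 15.6 FPKM in control. The groups did not overlap, by a small margin, and the log2 fold change was 0.18 ± 0.15 (SE), with an adjusted limma p of 0.832. Hist1h2ap (minus strand, chr13:21833026-21833507) had 8.48 and 15.4 FPKM in knockdown, against 13.0 and 11.0 FPKM in control. Here the knockdown values lay on either side of the control values, and the log2 fold change was -0.06 ± 0.27 (SE), with an adjusted limma p of 0.973. Of the stretches of 150 bases in these transcripts, 91.5% in Hist1h2ao and 91.0% in Hist1h2ap also occur in other transcripts, so their levels are uncertain: reads could be divided among the copies in more than 1 way.

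The same holds for Hist1h2aj (chr13:21721457-21721808, minus strand), annotated as a pseudogene, in which 89.7% of the stretches are shared. It had 9.58 and 10.2 FPKM in knockdown, against 8.35 and 9.03 FPKM in control. The groups did not overlap, and the log2 fold change was 0.17 ± 0.15 (SE), with an adjusted limma p of 0.850. Its FPKM values did not correspond to whole numbers of aligned bases in any of the 4 samples, within a tolerance of 0.1 base. Over 12 H2A genes with 1 transcript and at least 50% of stretches shared, 25 of 40 values above 0 were whole (62.5%), and over the 8 H2A genes with less shared 27 of 31 were (87.1%). Over 10 genes of the other histones with at least 50% shared it was 32 of 33 (97.0%), so values that were not whole were found mostly among H2A genes and not in all genes with shared sequence.

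Genes linked by shared sequence, where at least 50% of the stretches of 1 gene also occur in the other, were summed before a further test. Hist1h2ag, Hist1h2ao and Hist1h2ap together had 28.8 and 38.4 FPKM in knockdown, against 33.0 and 31.5 FPKM in control. The knockdown values lay on either side of the control values. Their log2 fold change was 0.04, with a 95% interval from -0.35 to 0.43 and an adjusted limma p of 0.966. The group of 8 around Hist1h2ab, which holds Hist1h2ad, Hist1h2ae, Hist1h2af, Hist1h2ah, Hist1h2ai, Hist1h2aj and Hist1h2an, had 18.2 and 19.7 FPKM in knockdown, against 17.7 and 17.6 FPKM in control. In this group Hist1h2ae and Hist1h2ab share less of their own sequence with any other gene than that, 24.5% and 45.1%. The log2 fold change of the group was 0.10, with a 95% interval from -0.21 to 0.41 and an adjusted limma p of 0.898. Both intervals leave out a 1.5-fold change in either direction on this scale.

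Among the smaller H2A genes, Hist1h2ai had 1.89 and 0.609 FPKM in knockdown, against 0.615 and 0.898 FPKM in control. Hist1h2an had 1.43 and 2.98 FPKM in knockdown, against 1.71 and 1.48 FPKM in control. Both overlapped between the groups, with log2 fold changes of 0.30 ± 0.33 and 0.26 ± 0.29 (SE). Hist1h2ad and Hist1h2ak had means of 1.81 and 1.68 FPKM and log2 fold changes of 0.03 and -0.21.

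Hist3h2a (chr11:58954685-58956830, plus strand, 1 exon of 2146 bases) had the longest annotated transcript among the H2A genes averaging 1 FPKM or more. It had 16.3 and 13.0 FPKM in knockdown, against 12.4 and 15.4 FPKM in control, and the values interleaved. It rested on 1286 and 1145 read lengths in knockdown, against 1037 and 1292 in control. The log2 fold change was 0.07 ± 0.18 (SE), with a 95% interval from -0.37 to 0.52 and an adjusted limma p of 0.951. An exon of Trim17 overlaps it on the same strand. Its neighbour across the shared start region, Hist3h2bb-ps, was at 0 in all samples.

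Of the 14 divergent pairs, the H2A gene had the higher mean over all 4 samples in 12 and the H2B gene in 2. By group means, the H2B gene was the higher in 4 pairs in knockdown, against 2 in control; the 2 pairs that differ, Hist1h2ah with Hist1h2bk and Hist2h2ac with Hist2h2be, lie near or under 1 FPKM. The most uneven of those led by H2A were Hist1h2ao with Hist1h2bq (means of 16.9 and 0.122 FPKM), Hist1h2ap with Hist1h2br (11.97 and 0.00291 FPKM) and Hist3h2a with its pseudogene partner. The reverse was seen in Hist1h2ac with Hist1h2bc, where the H2A gene averaged 0.280 FPKM and the H2B gene 14.7 FPKM. In Hist1h2bq and Hist1h2br, 92.4% and 84.2% of the stretches of 150 bases also occur in other transcripts. Their levels are thus uncertain, as are those of Hist1h2ao and Hist1h2ap. Both partners were tested in 3 pairs. The H2A and H2B log2 fold changes were -0.38 and 0.16 for Hist1h2ae with Hist1h2bg, -0.27 and -0.97 for Hist1h2ag with Hist1h2bj, and 0.17 and 0.31 for Hist1h2aj with Hist1h2bm.

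**Figure D3:**
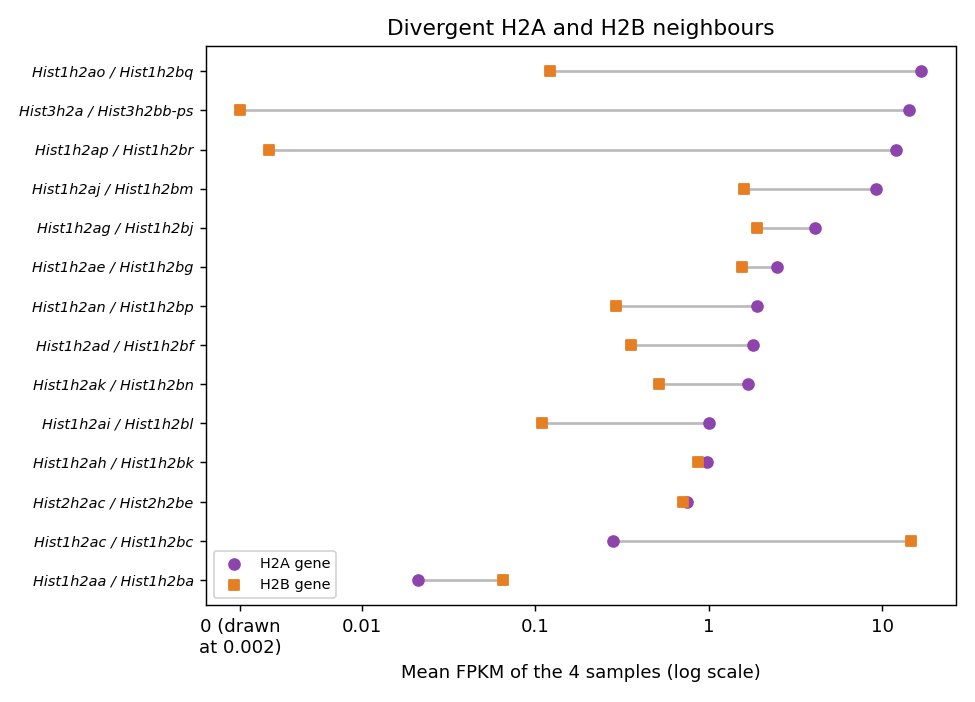
Mean FPKM of the 4 samples (log axis) for the H2A gene (purple circle) and the H2B gene (orange square) of each of the 14 divergent pairs, joined by a line. The H2A gene lies to the right in 12 pairs; Hist1h2bc, at 14.7 FPKM, is the H2B gene that stands far to the right of its partner.

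A pair on chromosome 3 below 1 FPKM was placed in opposite directions. Hist2h2be (H2B), whose transcript has a polyadenylation signal, had 0.896 and 1.13 FPKM in knockdown, against 0.141 and 0.669 FPKM in control. Its partner Hist2h2ac (H2A), annotated to end near the stem-loop, had 0.441 and 0.493 FPKM in knockdown, against 1.32 and 0.739 FPKM in control. Neither overlapped between the groups, and neither was tested because of its low level. This pair was chosen after its values were seen.

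H2B genes summed to 23.8 and 25.1 FPKM in knockdown, against 23.4 and 22.5 FPKM in control, and 4 of 19 passed 1 FPKM. The knockdown sums lay above the control sums by a small margin. Most of this was Hist1h2bc (chr13:23684199-23692908, plus strand), whose annotated transcript is spliced, with 2 exons and 1156 bases, and holds no match to the stem-loop pattern. It had 14.7 and 16.0 FPKM in knockdown, against 14.8 and 13.2 FPKM in control. The groups overlapped by a narrow margin. For Hist1h2bc the log2 fold change was 0.13 ± 0.14 (SE), with a 95% interval from -0.22 to 0.48 and an adjusted limma p of 0.883. Hist1h2bm had 2.36 and 1.35 FPKM in knockdown, against 0.758 and 1.93 FPKM in control, and a log2 fold change of 0.31 ± 0.33 (SE). Hist1h2bg, the remaining H2B gene tested beside Hist1h2bj, averaged 1.56 FPKM and had a log2 fold change of 0.16.

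**Figure D4:**
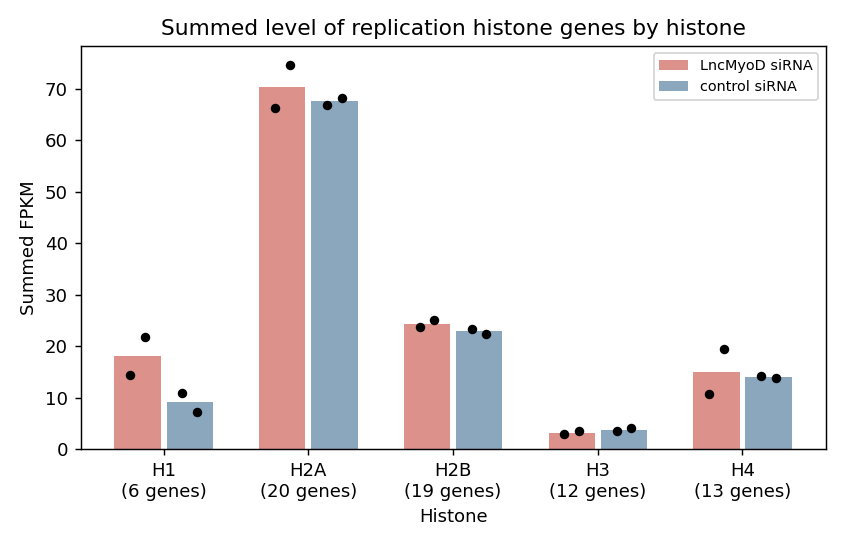
Summed FPKM of the replication histone genes by the histone they code for. Bars are group means (red LncMyoD siRNA, blue control siRNA) and points the 2 samples of each group; both knockdown sums lie above both control sums for H1 (14.3 and 21.7, against 11.0 and 7.31) and, by less, for H2B, and H2A gives the largest sum.

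The nucleosome core genes for H3 and H4 gave less. No H3 gene reached a mean of 1 FPKM; their sum was 2.85 and 3.52 FPKM in knockdown, against 3.44 and 4.10 FPKM in control, and the highest mean was 0.536 FPKM, for Hist1h3c. H4 genes summed to 10.7 and 19.4 FPKM in knockdown, against 14.2 and 13.7 FPKM in control. Hist1h4i (minus strand, chr13:22040636-22041362) had 8.73 and 15.7 FPKM in knockdown, against 9.59 and 10.9 FPKM in control, and so made up most of the H4 signal. The knockdown values lay on either side of the control values. Its log2 fold change was 0.19 ± 0.27 (SE), with an adjusted limma p of 0.912. Hist1h4d, the other H4 gene tested, averaged 1.48 FPKM and had a log2 fold change of -0.12.

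**Figure D5:**
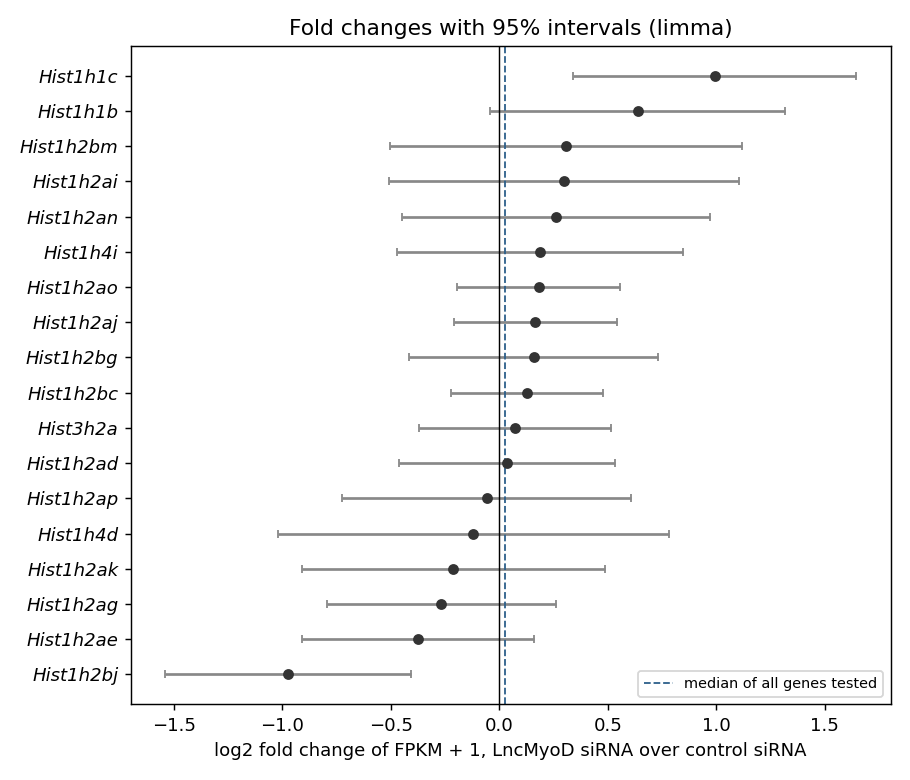
Log2 fold change of FPKM + 1, LncMyoD siRNA over control siRNA, for the 18 replication histone genes tested, with 95% limma intervals. The dashed line is the median of all genes tested, 0.026; the intervals of Hist1h1c and Hist1h2bj leave out 0, and the other 16 include it.

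Replacement histone genes had a far higher summed FPKM than the replication histone genes in the same libraries. Both are levels in polyadenylated RNA, and most replication histone messenger RNAs carry no poly(A) tail. The comparison is therefore not one of total histone RNA. The 11 listed had a summed level of 1530 and 1442 FPKM in knockdown, against 1438 and 1464 FPKM in control. That was 13.0 and 9.99 times the replication histone sum in knockdown, against 12.1 and 12.6 times in control. The 2 most abundant were H2afz (H2A.Z), with 492 and 469 FPKM in knockdown, against 460 and 472 FPKM in control, and H3f3b (H3.3), with 504 and 449 FPKM in knockdown, against 467 and 449 FPKM in control. Their log2 fold changes were 0.05 ± 0.08 and 0.05 ± 0.09 (SE). None of the 10 tested passed the threshold in either direction by limma. None had an unadjusted p under 0.05, where 7.08% of all genes tested did. The median log2 fold change of these replacement histone genes was 0.06. The lowest p-values were those of H2afy (macroH2A), with a log2 fold change of 0.37, and H3f3a (H3.3), with -0.21.

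Genes of histone RNA processing, of polyadenylation, of histone chaperones and of S phase were taken as 4 further lists. None of their tested genes passed the limma threshold in either direction. Of 15 tested genes for the processing and decay of histone messenger RNA, none had an unadjusted p under 0.05, where 7.08% of all genes tested did. The median log2 fold change of this list was 0.05. Slbp, for the stem-loop binding protein, had 15.7 and 16.1 FPKM in knockdown, against 13.8 and 14.01 FPKM in control, which do not overlap. Its log2 fold change was 0.18 ± 0.13 (SE), with an adjusted limma p of 0.806. Npat, the coactivator of histone gene transcription in S phase, had 4.16 and 2.71 FPKM in knockdown, against 2.82 and 3.60 FPKM in control, with a log2 fold change of 0.06; under quantile normalization that value was -0.0077. The lowest p-values in the list were those of Tut4, a uridylyltransferase, with a log2 fold change of 0.52, and Eri1, an exonuclease that trims histone messenger RNA, with 0.28.

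Among 14 tested cleavage and polyadenylation factors, which form ordinary poly(A) ends, 4 had an unadjusted p under 0.05 (where 7.08% of all genes tested did), with 1 higher and 3 lower in knockdown. Pabpn1, a nuclear poly(A)-binding protein, had a log2 fold change of 0.62, and Cpsf4, a subunit that binds the polyadenylation signal, one of -0.64, with adjusted limma p-values of 0.645 and 0.661. The median of the list was -0.024. Of 20 tested histone chaperones, 2 had an unadjusted p under 0.05, against the same 7.08% of all genes: Atrx, which deposits H3.3 with its partner Daxx, with a log2 fold change of 0.73, and the importin Ipo4, with -0.44. The median of that list was 0.04. Of 21 S-phase genes, all tested, none had an unadjusted p under 0.05, and the median log2 fold change was 0.06. The lowest p-values were those of the licensing factor Cdt1, with -0.36, and the helicase subunit Mcm3, with 0.25.

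As a check of the cell type, 9 myogenic markers summed to 4440 and 4050 FPKM in knockdown, against 5444 and 5165 FPKM in control, and 8 of them were tested, with none passing by limma. At an unadjusted p under 0.05, where 7.08% of all genes tested lay, were 2 of the 8, both lower in knockdown: Myog, with a log2 fold change of -0.40, and Msc, with -0.51. Myog, the differentiation factor myogenin, had 3406 and 2793 FPKM in knockdown, against 4196 and 3931 FPKM in control, and gave most of the sum. Pax7, the marker of satellite cells, was below a mean of 1 FPKM. The summed levels of the marker lists of endothelial cells, macrophages and leukocytes, fibro-adipogenic cells, smooth muscle and pericytes, and Schwann cells were between 0.0113 and 3.32 FPKM in knockdown, against 0.102 and 4.79 FPKM in control. Kdr, Ptprc, Adgre1 and S100b were at 0 in every sample. Other markers of these lists were not: Col1a1, Cd14, Tek, Cspg4 and Notch3 had means above 1 FPKM. The highest of these means was 3.46 FPKM, for Col1a1, so low levels of such markers were present. The part of the lower myogenic sum in the histone values was not tested.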

How the data were processed

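SMART-Seq v4 cDNA was sequenced in pairs of 150 nt, per the labels' protocols. The submitters' processing notes list StringTie 1.3.3, HISAT2 2.1.0, SAMtools 1.3, Trimmomatic 0.36, bcl2fastq 2.19 and build mm10. Annotation release and strand setting: not given in the sources used here. The authors deposited FPKM values, 1 for each gene in each sample, and that unit was inferred from the numbers.

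In genes with 1 transcript of 1 exon, FPKM times transcript length was set against a library's step (0.162 to 0.182). It was a whole multiple of the step for 91.7% to 93.0% of values between 100 and 1000 steps (tolerance 0.1, where chance gives 20%). This gave aligned bases, shown as read lengths of 150, and a depth ratio of 1.12 between the deepest and shallowest library; 1 FPKM on 1 kb was 36.7 to 41.1 read lengths. These were not counts of reads, so no count model was used.

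The 10900 genes averaging 1 FPKM or more were tested on log2(FPKM + 1) with limma 3.58.1 (R 4.3.3, mean-variance trend), two-sided, with Benjamini-Hochberg adjustment; residual degrees of freedom were 2 and prior ones 4.09. An exact permutation of 2 against 2 samples cannot go below p = 0.333. On simulated data with 200 changed genes, 4.60% of calls were false. Transcripts, stem-loops, signals and shared stretches of 150 bases came from GENCODE M21, in which 54409 identifiers were found; genes were grouped, by chains of links, where at least 50% of the stretches of 1 occur in the other. Overlapping antisense miRNA annotations of H2A genes cannot be told apart without strand. The histone genes, the 5 pathway lists and the 6 marker lists were chosen with earlier results of these data known. Genes were named by rule: histone genes averaging 5 FPKM or more or among the 10 lowest p in full, others above 1 FPKM briefly; Slbp and Npat; per list, those past the threshold or else the 2 lowest p; and the 2 most abundant replacement histones. Hist1h1e, Hist1h1d, the other genes named below 1 FPKM and the markers of other cell types named above it were chosen after their values were seen. Alternatives were a replicate block, 2 normalizations, a pseudocount of 0.1, no filter and a filter at 5 FPKM, limma without the trend, leaving out each sample, and summed groups; the summed groups and the lists' values under the alternatives were added after seeing the data. Other steps used pandas 2.3.3, numpy 2.4.6 and matplotlib 3.10.9 in Python 3.11.15.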

Additional observations from a re-analysis of the deposited data

How the results depend on the processing

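No replication histone gene and no gene of the 5 pathway lists passed the threshold by limma under any of the alternatives; the lowest adjusted p of a tested histone gene was 0.331. The log2 fold changes of 8 of the 18 histone genes kept their sign under all alternatives run, among them Hist1h1c, Hist1h1b and Hist1h2bj. With each sample left out, they ran from 0.70 to 1.28 for Hist1h1c, 0.30 to 0.97 for Hist1h1b and -1.15 to -0.80 for Hist1h2bj. The groups of these named genes did not overlap, so leaving out 1 sample could not turn their sign. Over all genes, 6 were called (1 higher, 5 lower), 7 with median ratio scaling (2 higher, 5 lower), 3 with the replicate number as a block, 0 with no filter (1508 at an unadjusted p under 0.05) and 5 to 15 with 1 sample left out; the cause was not tested. Deviations of same-numbered samples had a correlation of -0.0209, which gave no sign that the numbers pair the samples. With 2 pairs this cannot show that they were unpaired. The block called no histone gene. The median of the tested histone genes (0.14) was 0.0086 with no filter and -0.0065 to 0.20 with 1 sample left out; the log2 ratio of the histone sum ran from 0.0056 to 0.30.

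Quantile normalization turned Hist1h2ad to -0.0515 and Npat to -0.0077. With 1 sample left out, the values ran from -0.0623 to 0.676 for Hist1h2bm, -0.122 to 0.721 for Hist1h2ai, -0.0955 to 0.618 for Hist1h2an, -0.458 to 0.0322 for Hist1h2ak, -0.21 to 0.58 for Hist1h4i, -0.0353 to 0.351 for Hist1h2bg, -0.0819 to 0.227 for Hist3h2a, -0.62 to 0.38 for Hist1h4d, -0.45 to 0.34 for Hist1h2ap, -0.0276 to 0.136 for H3f3b and -0.18 to 0.30 for Npat. Medians of the lists ran from -0.0500 to 0.148 for S-phase genes, -0.0807 to -0.0083 for cleavage and polyadenylation factors (-0.0723 with quantile normalization), -0.0076 to 0.0922 for chaperones and -0.0106 to 0.129 for histone RNA processing; replacement histones had 0.0339 with median ratio scaling. At a mean of at least 0.1 FPKM, 45 Hist1, 4 Hist2, 1 Hist3 and 1 Hist4 gene counted as present. At 5 FPKM these were 6 Hist1 genes and 1 Hist3 gene. With 2 samples per group, differences of single genes of 2-fold or less are mostly beyond reach. Depth differs with transcript length: Hist2h2be, under 1 FPKM, rests on 14.5 to 122 read lengths, and Hist1h2ai, tested, on 9.46 to 27.2.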
